A study of Homo sapiens and Mus musculus with 20 samples.

Results

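Satb1 sites on the gene-dense human chromosomes 16, 17, 19 and 22 were taken as all peaks on these 4 chromosomes in 5 ChIP-seq peak lists of MCF10A cells. They numbered 7326 of 198095 peaks, or 3.70%, on 8.72% of the sequenced bases of the autosomes and X. The list of full-length Satb1 gave 953 of its 22877 peaks, the ∆HD list 2016 of 50537, the N-C1 list 2242 of 62856, the camptothecin list 852 of 24475 and the ICRF-193 list 1263 of 37350. Chromosomes 4, 13 and 18 served as the gene-poor reference, with 3751, 8145, 10193, 4293 and 6568 peaks in the same order.

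The study asked how Satb1 chooses its targets in the genome. MCF10A is a human mammary epithelial line without native Satb1, and it received Satb1 fused at the C-terminus to eGFP from a cumate-inducible lentiviral vector. The cells were sorted through one fluorescence gate, and chromatin was precipitated with an antibody to GFP, so every site comes from an introduced, tagged protein. ∆HD lacks the homeodomain, and N-C1 keeps the N-terminal dimerisation part together with CUT1 and lacks CUT2 and the homeodomain. Cells with full-length Satb1 were also treated for 2 h with camptothecin, an inhibitor of topoisomerase I, or with ICRF-193, an inhibitor of topoisomerase II. Accessible chromatin was mapped by ATAC-seq in native cells and in cells expressing Satb1. Each condition had 1 list. A range of read numbers is stated for the ChIP-seq libraries as a whole, and the depth of each list is unknown. A difference in peak number between lists is therefore not a measure of binding, a list that lacks a site does not show that Satb1 was missing there, and no p-value is given. Intervals are 95% intervals that cover counting error only, and neighbouring peaks are not independent.

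Satb1 is a chromatin organizer that binds A/T-rich DNA through its CUT domains and homeodomain, and it is best known from thymocyte development. Human chromosomes differ in base composition along their length, and gene-rich chromosomes hold more G/C-rich DNA, more short genes and more open chromatin than gene-poor ones. Chromosome 19 carries large clusters of Krüppel-type zinc finger genes, and chromosome 16 is known for its many duplicated segments.

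The sequences at the strongest full-length peak of each chromosome are printed as 150 bp of the plus strand of hg19, since they show what the sites look like. Capitals mark matches to the Satb1 consensus, which reads C or T, then TA, A or T, TA, and A or G. The consensus covers 8 heptamers and is its own reverse complement, so 1 strand was searched. Neighbouring or overlapping matches run together in the capitals.
chr16:13728205-13728354 (+): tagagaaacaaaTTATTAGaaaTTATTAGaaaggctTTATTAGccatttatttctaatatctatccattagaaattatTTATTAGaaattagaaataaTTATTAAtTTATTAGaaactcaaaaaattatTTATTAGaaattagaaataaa
chr17:35613728-35613877 (+): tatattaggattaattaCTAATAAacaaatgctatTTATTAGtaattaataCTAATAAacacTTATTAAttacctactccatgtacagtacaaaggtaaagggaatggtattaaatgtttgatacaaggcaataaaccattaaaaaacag
chr19:93697-93846 (+): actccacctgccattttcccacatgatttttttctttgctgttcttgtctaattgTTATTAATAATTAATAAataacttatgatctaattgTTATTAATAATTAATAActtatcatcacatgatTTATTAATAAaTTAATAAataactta
chr22:36094847-36094996 (+): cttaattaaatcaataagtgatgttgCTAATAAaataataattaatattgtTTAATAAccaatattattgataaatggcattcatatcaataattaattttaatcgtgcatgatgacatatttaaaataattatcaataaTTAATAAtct
The chromosome 16 stretch held 7 matches at 84.7% A/T, with the same heptamer repeated along it. The stretch of chromosome 17 held 4 matches at 76.0% A/T, the one of chromosome 19 held 9 matches at 79.3% A/T in overlapping runs, and the one of chromosome 22 held 3 matches at 83.3% A/T.

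These 4 peaks were found in all 5 lists, and none overlapped an accessible region of either ATAC-seq list. Fold enrichment, the authors' ratio of pileup to local background at a peak, is set side by side between lists and not compared, because each list has its own depth. The peak at chr16:13727911-13728649 lay between genes, 286 kb from the nearest coding start, that of the DNA repair gene ERCC4, and held 9 matches in 400 bp. Its fold enrichment was 45.5 for full-length Satb1, 8.37 for ∆HD, 50.5 for N-C1, 39.9 after camptothecin and 44.02 after ICRF-193. The peak at chr17:35613361-35614244 lay in an intron of ACACA, the acetyl-CoA carboxylase of fatty acid synthesis, with 5 matches in 400 bp. It had a fold enrichment of 48.4, 32.4, 77.7, 47.2 and 51.4 in the same order. The peak at chr19:93405-94139 lay 13.3 kb from the olfactory receptor gene OR4F17 with 9 matches in 400 bp, and its values were 47.2, 27.9, 75.3, 43.4 and 53.6. The peak at chr22:36094449-36095394 lay 18.97 kb from the apolipoprotein L gene APOL5 with 11 matches in 400 bp, and its values were 51.4, 13.3, 40.7, 63.2 and 72.5. It was the strongest peak of the 4 chromosomes in the full-length, camptothecin and ICRF-193 lists. The strongest gene-dense ∆HD peak was another site, at chr22:45427301-45428491 and 22.1 kb from PHF21B, with a fold enrichment of 70.1. For N-C1 it was a site in an intron of NFILZ at chr19:8781709-8782736, with a fold enrichment of 80.3.

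Full-length Satb1 peaks were sparser on the gene-dense chromosomes than on the gene-poor reference. Chromosome 16 held 5.13 peaks per Mb (4.65 to 5.66, 405 peaks), chromosome 17 held 3.70 (3.29 to 4.16, 288 peaks), chromosome 19 held 2.69 (2.27 to 3.15, 150 peaks) and chromosome 22 held 3.15 (2.59 to 3.799, 110 peaks). The density over the 4 chromosomes was 3.85 peaks per Mb of sequenced bases (3.61 to 4.10), against 10.5 (10.1 to 10.8) on the gene-poor ones, a ratio of 0.368 (0.342 to 0.395). Among the 23 autosomes and X, chromosomes 19, 22 and 17 had the lowest densities of all, and chromosome 16 ranked 5th from the lowest. The intervals of chromosomes 17 and 22 overlapped, as did those of 22 and 19, whereas chromosome 16 lay above the other 3. Across the 23 chromosomes the density ran against the number of protein-coding genes per Mb, with a Spearman rho of -0.730, and with A/T content, with a rho of 0.709. Gene density and A/T content themselves ran against each other with a rho of -0.875, so the chromosomes do not separate them.

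**Figure D1:**
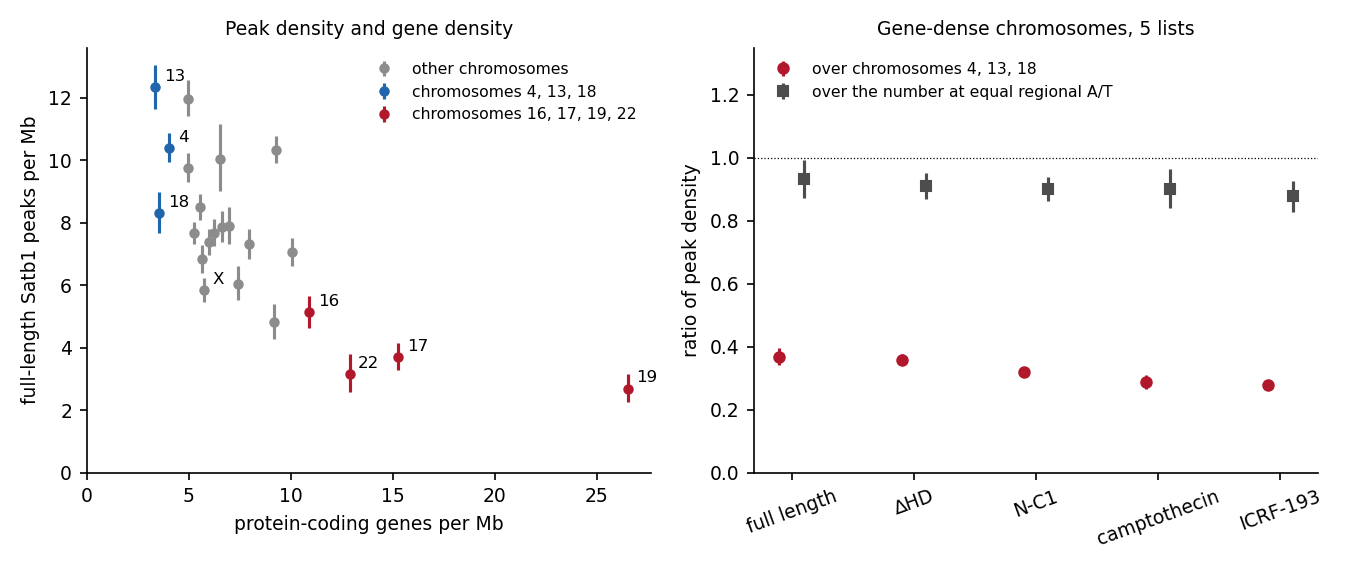
Left, full-length Satb1 peaks per Mb of sequenced bases against protein-coding genes per Mb, 1 point for each of 23 chromosomes with 95% counting intervals. Right, the density on chromosomes 16, 17, 19 and 22 in each of the 5 lists, as a ratio to chromosomes 4, 13 and 18 (circles, 0.278 to 0.368) and as a ratio to the number at equal regional A/T content (squares, 0.877 to 0.932).

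The same deficit was present in all 5 lists. The ratio of gene-dense to gene-poor density was 0.358 (0.341 to 0.376) for ∆HD, 0.318 (0.304 to 0.333) for N-C1, 0.287 (0.266 to 0.309) after camptothecin and 0.278 (0.262 to 0.296) after ICRF-193. Chromosomes 19, 22 and 17 ranged in this order, from sparse to less sparse, in every list. The ∆HD list, for example, held 5.77 peaks per Mb on chromosome 19, 6.45 on chromosome 22, 8.33 on chromosome 17 and 10.4 on chromosome 16. The intervals of chromosomes 19 and 22 overlapped in all 5 lists.

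The gene-dense chromosomes had 16.1 protein-coding genes per Mb against 3.77 on the gene-poor ones, and 53.7% A/T against 61.4%. They also held fewer consensus matches, 534 per Mb against 963. When 100 kb windows were sorted by A/T content, the gene-dense density was the lower one in each of 6 classes, by less than over the whole chromosomes. Windows of 60 to 64% A/T held 9.39 full-length peaks per Mb (8.32 to 10.6) on the gene-dense chromosomes and 9.49 (9.004 to 9.99) on the gene-poor ones. Windows of 56 to 60% A/T held 5.03 and 5.65 peaks per Mb, and windows of 52 to 56% A/T held 3.30 and 4.26. The gaps were wider at both ends, with 1.75 (1.41 to 2.16) and 3.09 (1.83 to 4.88) at 48 to 52% A/T and 13.6 (9.42 to 19.005) and 17.8 (16.97 to 18.6) at 64% or more, and there too the intervals overlapped. The share of sequence in each class differed as well. The windows of 60 to 64% A/T made up 11.98% of the gene-dense sequence and 42.8% of the gene-poor sequence, and those of 64% or more made up 1.01% and 27.8%. At the other end, windows under 48% A/T made up 17.1% of the gene-dense sequence and 1.29% of the gene-poor sequence, with 0.782 and 1.30 peaks per Mb.

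**Figure D2:**
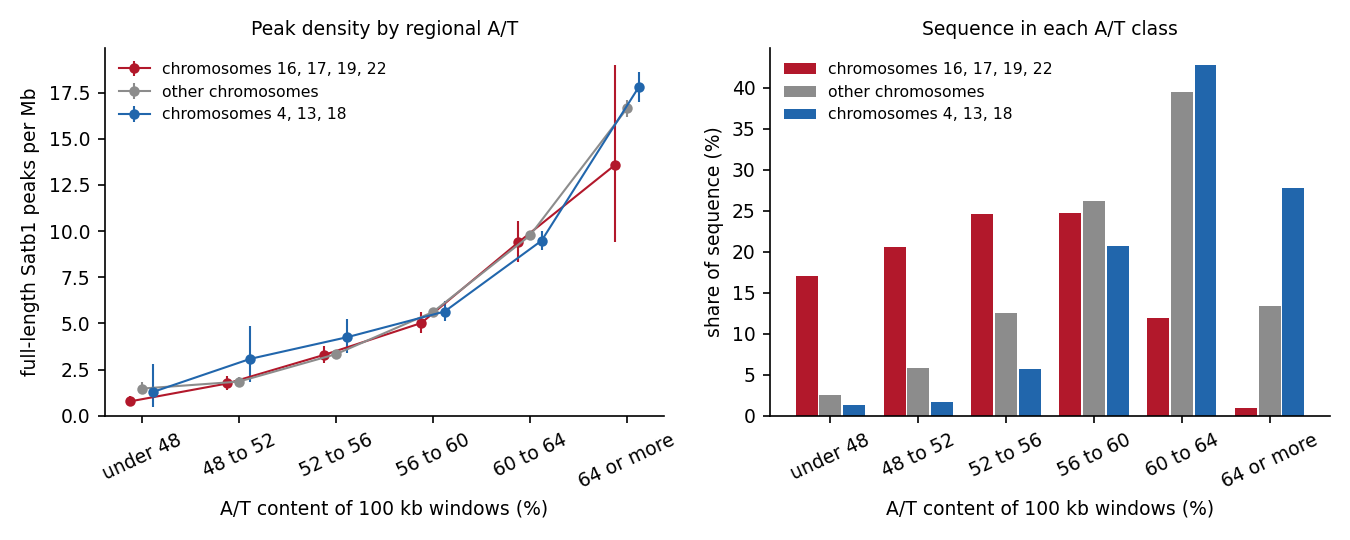
Left, full-length Satb1 peaks per Mb in 100 kb windows grouped by their A/T content, with 95% counting intervals, for the gene-dense, gene-poor and other chromosomes. Right, the percentage of each group's sequence in each class, where the gene-dense chromosomes hold 11.98% in the class of 60 to 64% A/T and the gene-poor ones 42.8%.

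A number of peaks at equal A/T content was obtained by giving each gene-dense window the density of its 2-point A/T class on all other autosomes and X. The 942 full-length peaks in usable windows compared with 1010 at equal A/T content, a ratio of 0.932 (0.874 to 0.994). The ratio was 0.910 (0.870 to 0.951) for ∆HD, 0.900 (0.863 to 0.938) for N-C1, 0.901 (0.841 to 0.964) after camptothecin and 0.877 (0.829 to 0.927) after ICRF-193, so a deficit of smaller size stood in each list. For full-length Satb1 it was on chromosomes 17, at 0.809 (0.717 to 0.909), and 19, at 0.846 (0.715 to 0.994). On chromosomes 16 and 22 the ratio was 1.06 (0.955 to 1.16) and 1.03 (0.847 to 1.24), with intervals that include equality. Ratios away from equality were not particular to the gene-dense chromosomes. For full-length Satb1 the ratio was 0.669 (0.625 to 0.714) on X and 0.952 (0.910 to 0.995) on chromosome 4. Chromosome 18 had 0.944 (0.871 to 1.02), chromosome 13 had 1.14 (1.08 to 1.21), and the gene-poor chromosomes together had 1.004 (0.972 to 1.04). X and chromosomes 4, 13 and 18 belong to the reference themselves, which draws their ratios towards equality. With windows sorted by consensus matches per Mb in place of A/T content, the ratio of full-length peaks was 1.003 (0.940 to 1.07). It was 0.953 (0.912 to 0.996) for ∆HD, 0.929 (0.890 to 0.968) for N-C1, 0.949 (0.886 to 1.02) after camptothecin and 0.914 (0.864 to 0.966) after ICRF-193. By chromosome, this ratio for full-length Satb1 was 1.12 (1.01 to 1.23) on 16 and 0.845 (0.749 to 0.95) on 17. On 19 it was 1.02 (0.862 to 1.199) and on 22 it was 1.09 (0.899 to 1.32). The value of 1.003 thus joins a ratio above equality on chromosome 16 and one below it on 17. The interval of chromosome 19 includes equality here, unlike at equal A/T content.

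At the sites themselves, the gene-dense peaks were A/T-rich islands in A/T-poorer surroundings. The central 200 bp of the 953 full-length peaks held 71.1% A/T on average (SD 6.39 over peaks), and the flanks lying 1000 to 2000 bp away held 58.9% (SD 5.94). The step from flank to centre was 12.2 percentage points, against 9.45 points on the gene-poor chromosomes, where centres held 73.1% and flanks 63.7%. The centre exceeded its flanks at 96.2% of the gene-dense peaks, at 94.5% of the gene-poor ones and at 94.8% over all autosomes and X. A centre richer in A/T than its flanks was thus not particular to the gene-dense chromosomes. The step was 11.8 points on chromosomes 16 and 17, 13.5 on chromosome 19 and 13.3 on chromosome 22. In the other lists the gene-dense step was also the larger one, at 9.15 points for ∆HD (7.06 on the gene-poor chromosomes), 10.2 for N-C1 (7.70), 13.2 after camptothecin (10.0) and 13.2 after ICRF-193 (9.97).

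The gene-dense full-length peaks held 2.67 consensus matches in 400 bp (2.56 to 2.78), against 2.85 (2.79 to 2.90) on the gene-poor chromosomes. In 150 bp the direction turned, with 1.97 and 1.95 matches. At least 1 match was present in 95.4% of them, beside 17.6% of all 400 bp tiles of the same chromosomes, and 4 or more in 22.7%, beside 0.0757% of the tiles. For the gene-poor chromosomes these shares were 97.04% of peaks beside 29.7% of tiles, and 26.8% beside 0.233%. No match was found in 44 gene-dense peaks, and 7 or more in 25. The most matches, 17, lay in a peak of 89.5% A/T at chr16:86352108-86352473, 192 kb from FOXF1, a forkhead factor of lung and gut mesenchyme. Its fold enrichment was 8.71 for full-length Satb1, 10.4 after camptothecin and 13.9 after ICRF-193, and neither the ∆HD nor the N-C1 list held it. The mean number of matches was 2.16 in the gene-dense ∆HD peaks, 2.23 for N-C1, 2.73 after camptothecin and 2.54 after ICRF-193.

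Peak strength differed little between the groups of chromosomes. The median fold enrichment of full-length peaks was 7.36 on the gene-dense chromosomes (quartiles 5.75 and 11.02) and 7.46 on the gene-poor ones. Strength was highest where matches were most numerous. On the gene-dense chromosomes the mean fold enrichment was 9.45 in the 44 peaks without a match, 8.50 (8.06 to 8.93) in the 433 peaks with 1 or 2 matches, 9.34 (8.80 to 9.87) in the 395 with 3 or 4, and 19.99 (17.1 to 22.8) in the 81 with 5 or more. The gene-poor peaks with 5 or more matches had a mean of 17.9 (16.6 to 19.2).

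Seen from the sequence, a consensus match on a gene-dense chromosome lay inside a full-length peak in 1.93% of cases, against 3.12% on the gene-poor chromosomes, a ratio of 0.619 (0.593 to 0.647). Matches on the gene-dense chromosomes were more often solitary: 69.1% had no other match within 200 bp, against 59.95%. Crowded matches, with 4 or more others within 200 bp, numbered 3.05 per Mb there and 8.58 per Mb on the gene-poor chromosomes. Once crowded, they were inside a full-length peak in 67.5% of cases (64.1 to 70.9) on the gene-dense and in 70.1% (68.5 to 71.7) on the gene-poor chromosomes. Of solitary matches, 0.226% and 0.293% lay in peaks. For N-C1 the gap was wider, with 0.699% and 1.29% of solitary matches and 68.1% and 75.7% of crowded ones. For ∆HD the crowded matches stood at 51.9% on the gene-dense and 65.95% on the gene-poor chromosomes. The shares of all other autosomes and X, not of the gene-poor chromosomes alone, were then applied at equal numbers of neighbours. The bound gene-dense matches were 0.885 of the resulting number for full-length Satb1, 0.814 for ∆HD, 0.751 for N-C1, 0.744 after camptothecin and 0.725 after ICRF-193. With the A/T content of the surrounding 100 kb also made equal, these ratios were 0.982, 0.970, 0.962, 0.95 and 0.939.

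**Figure D3:**
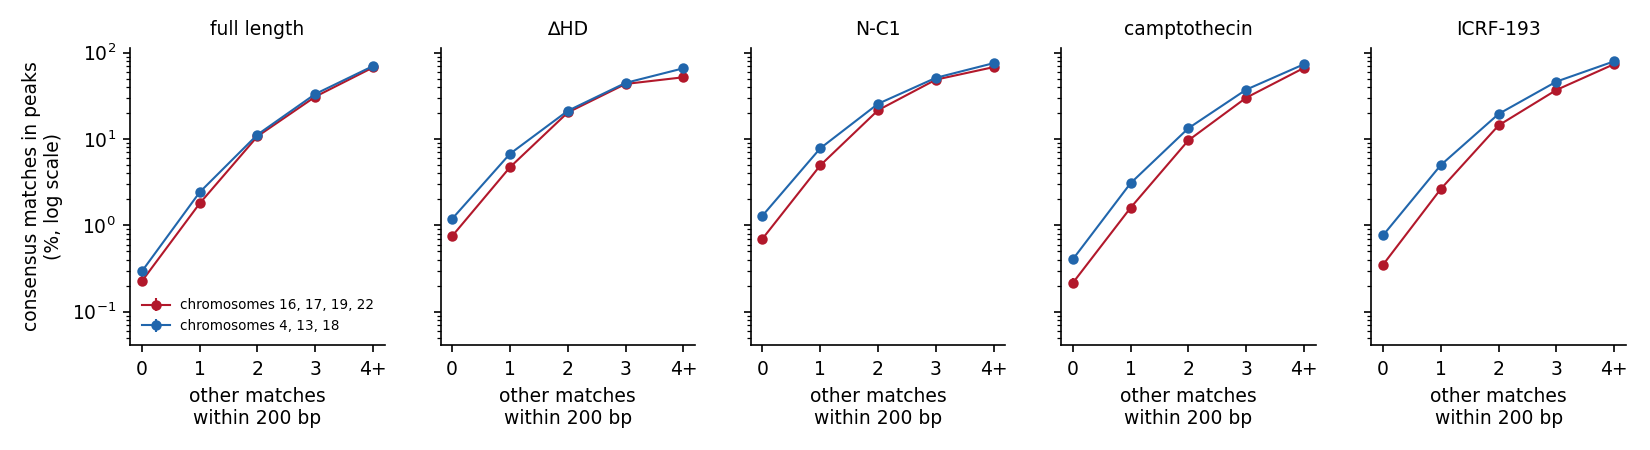
Percentage of consensus matches inside a peak (log scale) against the number of other matches within 200 bp, for chromosomes 16, 17, 19 and 22 and for chromosomes 4, 13 and 18, with 1 panel for each of the 5 lists and 95% binomial intervals. In the full-length panel the lines run from 0.226% and 0.293% for solitary matches to 67.5% and 70.1% for those with 4 or more neighbours.

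The gene-dense chromosomes were more accessible as a whole, and so were their Satb1 sites. ATAC-seq peaks of Satb1-expressing cells covered 16.3% of their sequenced bases and those of native cells 9.52%, against 4.84% and 3.72% on the gene-poor chromosomes. Of the full-length peaks, 72 (7.56%, 5.96 to 9.42) shared at least 1 bp with an accessible region of Satb1-expressing cells, and 52 (5.46%) with one of native cells. The gene-poor share was 2.99% in Satb1-expressing cells. Both ATAC-seq lists held 43 of the gene-dense peaks, 29 were in the Satb1 list alone, 9 in the native list alone, and 872 in neither. By chromosome, the accessible share in Satb1-expressing cells was 8.89% on 16, 5.90% on 17, 6.67% on 19 and 8.18% on 22. The accessible regions covered 12.9%, 16.6%, 18.5% and 19.9% of these chromosomes in the same order. The share of summits in accessible regions was 0.362 (0.220 to 0.558) of the covered share on 16 and 0.252 (0.131 to 0.433) on 17. It was 0.288 (0.126 to 0.553) on 19 and 0.183 (0.0503 to 0.455) on 22, and all of these intervals overlapped. Summits lay in accessible regions at 4.51% of the gene-dense peaks, which is 0.276 (0.201 to 0.369) of the covered share, and the corresponding ratio on the gene-poor chromosomes was 0.303 (0.229 to 0.394). The ratios of both groups of chromosomes thus overlapped for full-length Satb1. For ∆HD they did not, at 0.195 (0.150 to 0.247) on the gene-dense and 0.363 (0.306 to 0.427) on the gene-poor chromosomes. For N-C1 they were also apart, at 0.183 (0.142 to 0.232) and 0.300 (0.254 to 0.352).

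Although these chromosomes are rich in genes, full-length summits lay in the gaps between genes more often than the sequence does. Inside a protein-coding transcript lay 39.1% of the summits, against 54.0% of the bases, and 30.7% against 36.7% on the gene-poor chromosomes. Introns held 358 summits (37.6%), exons 7 (0.735%, with 5.75% of the bases) and promoters, taken from 1000 bp upstream to 100 bp downstream of a coding start, 17 (1.78%, with 3.51% of the bases). The remaining 571 (59.9%) were intergenic. Even so, the median distance from a summit to a coding start was 47.9 kb, against 196 kb on the gene-poor chromosomes, and 12.8% of the summits lay within 5 kb of a start, against 4.03%. Starts are denser on the gene-dense chromosomes, and the share of bases within 5 kb of a start is not given here. Within 2000 bp on either side of a start lay 5.98% of gene-dense summits, against 10.4% of the bases. For the gene-poor chromosomes these shares were 1.52% and 2.69%. Chromosome 19 stood apart, with a median distance of 14.3 kb, 24.7% of summits within 5 kb and 9 of the 17 promoter peaks. Its promoter share of 6% was near the 5.42% of its bases that are promoter.

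The promoter peak with the largest fold enrichment lay 0.725 kb from the start of APOBEC3C on chromosome 22, a cytidine deaminase of antiviral defence, at chr22:39409303-39409759. Its fold enrichment was 14.3 for full-length Satb1, 13.02 for ∆HD, 26.1 for N-C1, 9.83 after camptothecin and 15.1 after ICRF-193. The next were at COMP, a cartilage matrix protein (chr19:18902807-18903218, 14.02), and at the zinc finger gene ZNF737 (chr19:20748926-20749458, 10.9), both also found in the 4 other lists. None of these 3 was accessible. The other 14 lay at NPIPB5 and ZNF19 on chromosome 16, at MYH3, SYNRG, MED24, HOXB3 and ZNF652 on chromosome 17, and at ZNF30, ZNF383, ZNF573, FOSB, FGF21, ZNF841 and CACNG8 on chromosome 19. The peaks at ZNF652, ZNF30, FOSB (an AP-1 subunit) and FGF21 (a metabolic hormone) overlapped accessible regions of Satb1-expressing cells, and 3 of them, all but FGF21, also those of native cells. These 14 were chosen as the full set after the values were seen.

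Between their first and last base, 266 of 3980 protein-coding genes of the gene-dense chromosomes (6.68%) held a full-length summit, against 494 of 1349 (36.6%) on the gene-poor chromosomes. Gene length went with this share. Of genes under 50 kb, 2.32% held a summit (1.83 to 2.90), of those from 50 to 200 kb 21.0% (17.9 to 24.3), and of those over 200 kb 61.2% (49.99 to 71.6). The summit density inside genes was 1.48, 3.08 and 4.06 per Mb in these classes on the gene-dense chromosomes and 8.01, 7.26 and 9.53 per Mb on the gene-poor ones. Short genes of gene-dense chromosomes thus held fewer sites per base than long ones.

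The 5 genes of each chromosome with the most full-length summits were 77.6 kb or longer on chromosomes 16, 17 and 22, and from 27.1 to 427 kb long on chromosome 19. On chromosome 16, HYDIN, a protein of motile cilia (chr16:70835987-71264625), held 10, with 15 for ∆HD, 20 for N-C1, 9 after camptothecin and 11 after ICRF-193. The splicing factor gene RBFOX1 and CNTNAP4, a neuronal adhesion protein, held 7 each, and LPCAT2, an enzyme of membrane lipid remodelling, held 5 within 77.6 kb. RBFOX1 is 2474 kb long and had 2.83 summits per Mb, below the 3.19 of all coding genes of chromosome 16. CNTNAP4 is 283 kb long and had 24.7 per Mb. A gene model without a name that overlaps CNTNAP4, ENSG00000287694, held 9, so the same peaks enter both counts. On chromosome 17, CA10, ACACA and the helicase gene HELZ held 4 each, and ANKFN1 and the centrosomal CEP112 held 3 each. CEP112 held 11 summits of ∆HD and 17 of N-C1. On chromosome 22, TTC28 (chr22:28374002-29075828) held 9, with 15, 20, 8 and 11 in the other lists, followed by MYO18B, EFCAB6 and GRK3 with 3 each. No gene of chromosome 19 held more than 2, the number in the calcium channel gene CACNA1A, the phosphatase gene PTPRS, the mucin gene MUC16, ZNF846 and CYP2B6, a drug-metabolising enzyme.

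Lists of genes of these chromosomes were described by the number of genes with a full-length summit, beside 6.68% of all coding genes and 2.78 summits per Mb of their sequence. Of 23 long genes of neurons, cell adhesion and fragile sites, 19 (82.6%) held 57 summits in all, at 4.23 per Mb (3.21 to 5.48) in sequence of 56.4% A/T. All gene-dense genes over 200 kb stood at 61.2% and 4.06 per Mb, as given above. The tumour suppressor WWOX and the cadherins CDH13 and CDH8 held 3, 3 and 4 of them. Of 249 zinc finger genes of chromosome 19, 22 (8.84%) held a summit, at 2.91 per Mb (1.83 to 4.41) in sequence of 56.8% A/T. All coding genes of chromosome 19 stood at 4.26% and 1.92 per Mb (1.48 to 2.45), in sequence of 50.1% A/T. Among 32 mammary epithelial and breast cancer genes, 5 held 8 summits: CBFB, EP300 and NF1 held 2 each, and BRCA1 and CDH1 held 1 each. The summit in CDH1, which encodes E-cadherin, was not in the camptothecin and ICRF-193 lists, where that gene held 0. Over the whole list, 6 genes held 9 summits after camptothecin and 6 held 10 after ICRF-193, and ∆HD and N-C1 had 14 and 18 summits. The full-length density was 4.94 per Mb (2.13 to 9.74), an interval that includes the 2.78 of all coding genes. It was 8.65 (4.73 to 14.5) for ∆HD, 11.1 (6.59 to 17.6) for N-C1, 5.56 (2.54 to 10.6) after camptothecin and 6.18 (2.96 to 11.4) after ICRF-193. All gene-dense coding genes held 6.07, 6.79, 2.32 and 3.52 summits per Mb in these lists. None of the 62 keratin and keratin-associated genes, the 19 chemokine genes, the 11 metallothionein genes and the 7 APOBEC3 genes held a full-length summit. These genes are short, and the keratin list, for example, spans 0.225 Mb, where 0 summits allow up to 16.4 per Mb. Of the HOXB genes 1 of 10 did (HOXB3, with 2), and of the olfactory receptor genes 3 of 37. The counts were 1 of 15 kallikrein genes, 2 of 22 CEACAM and PSG genes, 1 of 28 KIR, LILR and SIGLEC genes and 2 of 12 CYP2 and CYP4F genes.

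Along the gene-dense chromosomes the full-length sites were unevenly spread. Of 248 bins of 1 Mb, 25 (10.1%) held no peak, against 2 of 358 (0.559%) on the gene-poor chromosomes, and the fullest 52 bins (21.0%) held 50% of the peaks. On the gene-poor chromosomes the fullest 101 bins (28.2%) held 50%. The median bin held 3 peaks on the gene-dense and 9 on the gene-poor chromosomes, and a lower count by itself leaves more bins empty. The fullest bin of chromosome 17, chr17:68000001-69000000, held 13 peaks in a stretch of 62.8% A/T with only 2 coding starts, those of the potassium channel genes KCNJ2 and KCNJ16. On chromosome 22 it was chr22:28000001-29000000 with 10 peaks around MN1, PITPNB and TTC28. On chromosome 19 it was chr19:9000001-10000000 with 7 peaks among zinc finger and olfactory receptor genes. The fullest of all, chr16:33000001-34000000, held 29 peaks at 57.6% A/T, and 29, 46, 40 and 47 in the other lists. It lies close to the centromere, beside the TP53TG3 genes.

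**Figure D4:**
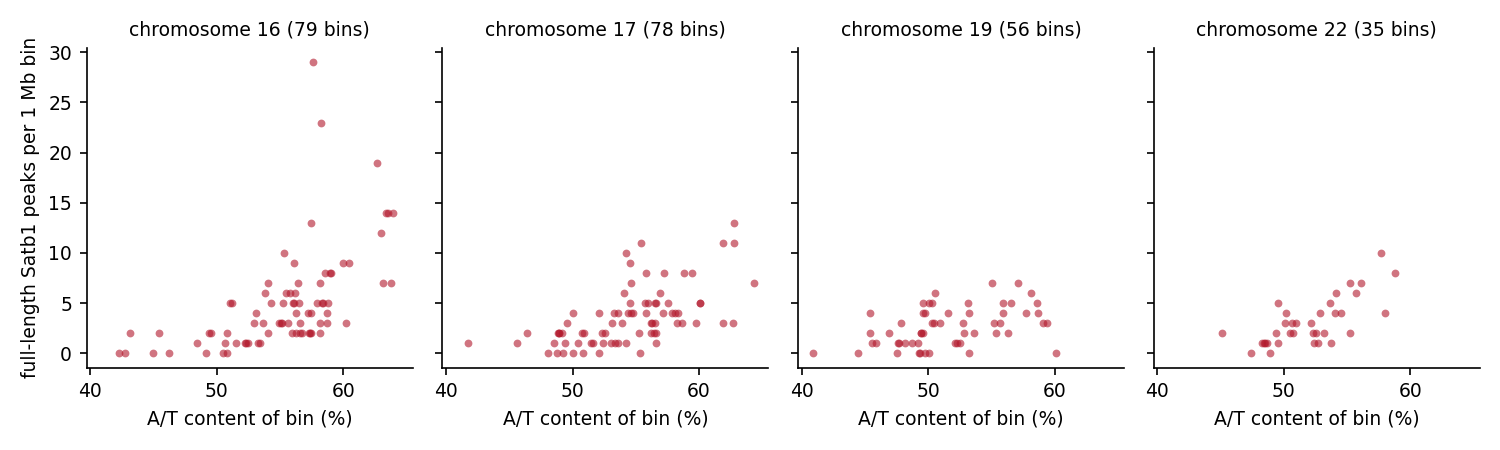
Full-length Satb1 peaks per 1 Mb bin against the A/T content of the bin, 1 point for each bin of chromosomes 16, 17, 19 and 22. The 2 fullest bins, on chromosome 16 near the centromere, hold 29 and 23 peaks at 57.6% and 58.3% A/T, and the fullest bin of chromosome 17 holds 13 at 62.8%.

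Duplicated sequence carried part of these sites. The central 31 bases had another exact copy in the genome at 155 of the 953 gene-dense full-length peaks (16.3%, 13.98 to 18.8), against 149 of 3751 (3.97%) on the gene-poor chromosomes. At positions taken every 10 kb along the same chromosomes the shares were 20.4% and 11.9%. More than 10 copies were counted for 24 of the 155 gene-dense and 24 of the 149 gene-poor peaks. Among the positions with a copy they were counted for 2709 of 5042 and 2599 of 4273. The positions thus hold far more repeats of many copies, and their shares are not a like background for the peaks. In the fullest bin of chromosome 16 peaks with another exact copy were 16 of 29, whereas in that of chromosome 17 they were 0 of 13. Within 2 Mb of a centromere gap lay 101 gene-dense peaks (10.6%) and 75 gene-poor ones (2.00%). The gene-dense group is 4 chromosomes of 247 Mb in all and the gene-poor group 3 of 358 Mb. More of the gene-dense sequence can therefore lie this close to a gap. That share of bases is not given here, so these 2 percentages have no background beside them. In the other lists 11.3% (∆HD), 12.8% (N-C1), 18.4% (camptothecin) and 15.9% (ICRF-193) of the gene-dense peaks had such a copy. How the alignment treated reads from such copies was not tested. Without the peaks that have a copy, and with the copied share of sequence also taken from the Mb, the gene-dense density was 0.355 of the gene-poor one for full-length Satb1, beside 0.368. That copied share includes the repeats of many copies.

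A stretch next to the centromere of chromosome 19, chosen after its values were seen, differed between constructs. The bin chr19:28000001-29000000, which holds no coding start, had 42 peaks in the ∆HD list, the most of any bin of the gene-dense chromosomes in that list, and 6 in the full-length, 13 in the N-C1, 5 in the camptothecin and 4 in the ICRF-193 list. Only 1 of the 42 had another exact copy of its central bases, and their median fold enrichment was 5.73. Since each construct has 1 list, this count has no replicate check.

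Of the gene-dense full-length peaks, 87.4% (85.1 to 89.4) shared at least 1 bp with a ∆HD peak and 94.8% (93.1 to 96.1) with an N-C1 peak, close to the 87.2% and 95.1% of the gene-poor chromosomes. After camptothecin 75.1% (72.3 to 77.8) were found, against 85.0% (83.8 to 86.1), and after ICRF-193 89.1% (86.9 to 91.0), against 94.6% (93.8 to 95.3). The shares of both drug lists thus lay lower on the gene-dense chromosomes, beyond counting error. All 4 other lists held 610 of the 953 peaks (64.01%), against 73.1% on the gene-poor chromosomes, and no other list held 3 of them. Peaks missing from a list differed in composition in opposite ways. Those not found for ∆HD and N-C1 had 77.2% and 79.6% A/T, against 70.3% and 70.7% of those found, while those not found after camptothecin and ICRF-193 had 67.4% and 64.2%, against 72.4% and 72.0%. The gene-poor peaks went the same way. Of those with 78% A/T or more in the central 200 bp, 56.3% were found for ∆HD and 76.1% for N-C1. Of those below 66% A/T, 55.6% were found after camptothecin and 73.4% after ICRF-193.

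The share found after camptothecin went with peak strength and with regional A/T content. Of the gene-dense peaks in the lowest class of full-length fold enrichment, up to 5.82, 47.6% were found, against 65.6% on the gene-poor chromosomes. In the next class, up to 7.33, it was 59.4% against 75.1%, in the one up to 10.7 it was 92.6% against 96.3%, and above that all 254 gene-dense peaks were found, with 937 of 938 gene-poor ones. At equal A/T content of the surrounding 100 kb the gap varied with the class. In surroundings of 60 to 64% A/T, 83.7% (78.9 to 87.8) of the gene-dense and 83.6% of the gene-poor peaks were found, and at 56 to 60% A/T 74.4% (69.1 to 79.1) and 76.6%. At 52 to 56% A/T the shares were 67.7% (60.7 to 74.1) and 75.6% (65.1 to 84.2), and at 64% or more they were 82.5% (67.2 to 92.7) and 88.6% (87.1 to 90.1). Below 52% A/T 66.1% of 112 gene-dense peaks and 77.8% of 18 gene-poor ones were found. At equal fold enrichment class and equal regional A/T content, the gene-dense share was 0.985 of that on the gene-poor chromosomes, at equal fold class alone 0.891, and at equal regional A/T content alone 0.965. Equal A/T content of the central 200 bp left a wider gap, with 0.936 alone and 0.940 together with the fold class. For ICRF-193 the ratio was 0.981 at equal fold class and regional A/T content, 0.946 at equal fold class and 0.970 at equal regional A/T content.

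**Figure D5:**
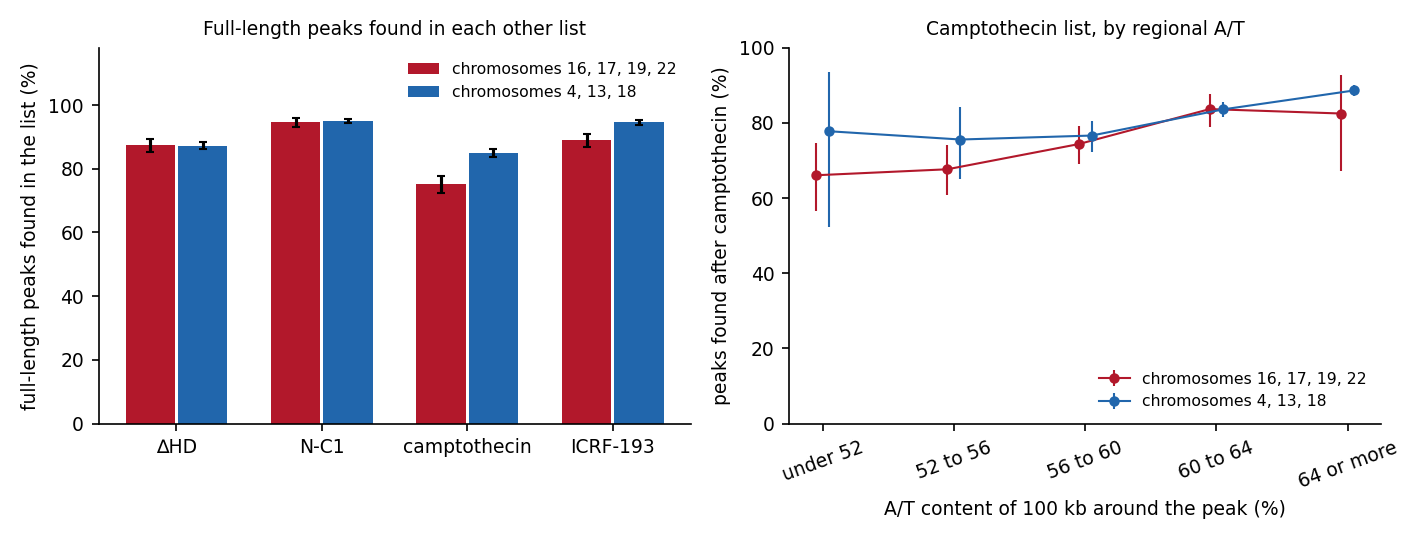
Left, percentage of full-length Satb1 peaks of the gene-dense and gene-poor chromosomes found in each of the 4 other lists (bars, with 95% binomial intervals), with the widest gap after camptothecin, at 75.1% and 85.0%. Right, the percentage found after camptothecin by A/T content of the 100 kb around the peak, where the groups lie at 83.7% and 83.6% in the class of 60 to 64%.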

How the data were processed

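MCF10A ChIP-seq and ATAC-seq peak lists on hg19 were used, with 1 list per condition, so no test was run and no paired samples exist. Per the labels and methods, the authors trimmed reads with cutadapt, aligned them with Bowtie2 and used MACS2 for peak calling, with input DNA as the ChIP-seq control and broad peaks for ATAC-seq. Default parameters are stated for the aligner and for ChIP-seq peak calling. The versions of Bowtie2 and MACS2, the pooling of duplicates and any filter on mapping quality are not given in the sources used here. The deposited fold enrichment is the authors' ratio of pileup to local background at each peak, and the deposited −log10 q-value was used only as a threshold in alternatives. Depth is stated as a range over the ChIP-seq libraries and not for each list, which limits comparisons of peak number.

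From the lists, peaks were counted per Mb of reference sequence without N, on the autosomes and X. Consensus matches were exact matches in 400 bp at the peak midpoint, and A/T content was taken over 200 bp and over flanks at 1000 to 2000 bp. A gene feature was read at the summit from the protein-coding transcripts of GENCODE, as lifted to GRCh37, in the order promoter, exon, intron, intergenic. Lists were overlapped with at least 1 bp shared. Shares carry exact Clopper-Pearson intervals, densities exact Poisson intervals, and means normal intervals over peaks. Ratios between groups of chromosomes carry exact conditional intervals. Ratios at equal A/T content or equal matches per Mb carry exact Poisson intervals of the observed count, with the number at equality taken as fixed. Ratios of summits to the covered share carry the interval of the summit share, with the covered share taken as fixed. Counts at equal A/T content used 100 kb windows in classes of 2 percentage points. Named peaks were the strongest of each chromosome and list, the one with most matches and the 3 strongest at promoters. Named genes were the 5 per chromosome with most full-length summits, and the gene lists, of which 1 gene is not reported here. The chromosomes, gene lists and measures were chosen with earlier results of these data known. The functions were tested on simulated data. Software comprised bedtools 2.31.1, matplotlib 3.10.9, scipy 1.17.1, numpy 2.4.6 and Python 3.11.15. The inputs, the N construct, TMP-seq and the mouse lists were not analysed here.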

Additional observations from a re-analysis of the deposited data

How the results depend on the processing

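Of the values under alternatives, 54 stayed within the counting interval of the reported value and 37 moved out of it. The ratio of gene-dense to gene-poor density stayed under 1 in each of them. Without chromosome 16 it was 0.310 for full-length Satb1, 0.312 for ∆HD, 0.274 for N-C1, 0.232 after camptothecin and 0.232 after ICRF-193, and without chromosome 19 it was 0.3999, 0.389, 0.352, 0.320 and 0.311. Without chromosome 13 the camptothecin and ICRF-193 ratios were 0.310 and 0.297, and without chromosome 18 the ICRF-193 ratio was 0.258. Over the full chromosome length, N bases included, the ratio was 0.337 for ∆HD and 0.300 for N-C1, and with a fold enrichment of at least 5 it was 0.339 for ∆HD. Alternatives chosen after seeing the data, on copies and on the centromere, left out peaks whose central 31 bases have another exact copy, which gave 0.321, 0.327, 0.286, 0.242 and 0.241 in the order above. These values fall in part by construction, since the copied sequence stays in the Mb. With the copied share of sequence also left out the ratios were 0.355, 0.362, 0.316, 0.268 and 0.267. That share includes repeats of many copies, which few of the peaks have. Leaving out the 2 Mb on either side of a centromere gap gave 0.339 for ∆HD, 0.304 for N-C1, 0.266 after camptothecin and 0.259 after ICRF-193. With the narrower consensus CTAATA followed by A or G, on either strand, the ratio of bound shares was 0.583 and the mean number of matches per gene-dense peak 0.957 (1.04 on the gene-poor chromosomes). In a 150 bp window the gene-dense mean was 1.97 matches, now above the gene-poor 1.95, so the direction of that small difference depends on the window. A/T content was 73.6% over 100 bp and 67.6% over 400 bp. The accessible share of full-length peaks was 4.51% by summits, 4.30% with at least 50% of the peak covered, 4.41% with ATAC-seq peaks of a −log10 q of at least 5 and 5.46% in native cells, against 1.47%, 1.47%, 2.29% and 2.51% on the gene-poor chromosomes. The promoter share was 6.61% with transcripts of every type and 5.98% within 2000 bp on either side of a start, against 9.01% and 10.4% of the bases, and on the gene-poor chromosomes 1.79% and 1.52% of summits against 3.04% and 2.69% of the bases. With reciprocal overlap of 50%, 90.1% of the gene-dense full-length peaks were found for N-C1. No paired analysis was possible because each condition has 1 list and no result comes from a test. Read depth and multiple alignment limit the count of sites in duplicated sequence, and the depth is not given for each list.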
